A study of Mus musculus with 24 samples.

Results

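Of the 14769 genes listed in any of the 4 expression tables, 9 code for core parts of the postsynaptic density and are described here: the scaffolds Dlg4, Dlgap1, Shank1, Shank2, Shank3, Homer1 and Homer2, and the kinase subunits Camk2a and Camk2b. They were chosen by symbol, with earlier results of these data known, and all 9 were listed in each table. The RNA was cortical and came from males of 3 to 4 months, after transient middle cerebral artery occlusion (tMCAo), in which a filament blocked the artery for 1 h and was then withdrawn for 1 day of reperfusion. The 24 libraries formed 4 groups with 6 in each, named by side and genotype: CL and PI of WT animals, and CL and PI of KO animals. KO animals lacked ciRS-7 (Cdr1as), a circular RNA of neurons that carries many binding sites for the microRNA miR-7, and WT animals had it. All animals had the surgery, and the strain given for all of them, WT included, is C57BL/6N-Cdr1asem1Nikr. The labels name a CL and a PI sample of each animal and do not spell these marks out, so they are used as given. There was no group without surgery.

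The postsynaptic density is the protein mesh under the membrane of excitatory synapses. Dlg4 (PSD-95) lies next to the membrane and holds glutamate receptors, Dlgap1 (GKAP, SAPAP1) joins Dlg4 to the Shank proteins below, and Homer proteins tie Shank to metabotropic glutamate receptors and to calcium stores. CaMKII, built from Camk2a and Camk2b subunits, is activated by calcium entering through NMDA receptors and strengthens synapses. Homer1 is also made in a short form, Homer1a, which is induced by neuronal activity and competes with the long form. The values are per gene, so the short and long Homer1 RNAs are counted together.

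Values are log2 CPM, reads of a gene relative to the size of its library, on a log2 scale. In all genes the 2 lowest and the 2 highest of the 6 deposited values of a group were tied, because they had been drawn in to the group's quartiles. For each gene and group 4 of the 6 values could be recovered, and the lowest and highest library could not. Lowest and highest below therefore mean the lowest and highest recoverable value, and levels are means of the 4 recoverable values (trimmed means) ± SE with n = 6 libraries. Groups are said not to overlap where their recoverable values do not. Counts of animals in which a gene was lower use the deposited values. Where the groups of a gene do not overlap, that count is 6 of 6 by construction and adds no support. Differences were tested with a moderated trimmed-mean test (limma), and a gene was called where its p, adjusted over all genes of the table by the Benjamini-Hochberg method, was under 0.05. Each table held 2 groups and was scaled on its own, so levels in different tables are not compared.

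The 2 sequences below are shown because the KO removes a binder of miR-7 and because Homer1 had the largest difference between PI and CL in both genotypes among the 9 genes. The mature miR-7a-5p (RefSeq) has its seed, bases 2 to 8, in capitals. The second sequence is the 250 bases before a RefSeq start of Homer1 (build GRCm38.p6, chr13:93303507-93303756, plus strand), with the motif TGACG, the core of the cyclic AMP response element, in capitals.
mmu-miR-7a-5p: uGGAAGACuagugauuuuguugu
Homer1: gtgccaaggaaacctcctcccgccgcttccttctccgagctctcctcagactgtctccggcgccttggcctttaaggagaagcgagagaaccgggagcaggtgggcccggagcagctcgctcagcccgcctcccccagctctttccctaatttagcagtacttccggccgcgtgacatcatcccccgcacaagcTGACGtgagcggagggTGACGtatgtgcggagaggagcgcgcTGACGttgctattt
TGACG was searched on both strands (as TGACG or CGTCA, which also occur inside the full element TGACGTCA). It occurred 3 times in the Homer1 window shown, and 0 times in the window of another Homer1 start. It occurred 3 or more times in 0.688% of 32851 mouse windows of the same length. At least 1 match was present in 17.77% of all windows. Of the 11 windows of the 6 genes with an entry (Dlg4, Dlgap1, Shank3, Homer1, Homer2 and Camk2b), 1 other, a Dlg4 window, held 1 match. TGACGTCA was in none of the 11 and in 1.55% of all windows. These are matches of letters, and binding was not measured.

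The members with a full miR-7 site in the longest annotated 3′ untranslated region (GENCODE M21, GRCm38) are shown next, because the genotype comparison concerns miR-7. A 7-base site, GTCTTCC, pairs with the whole seed, and an 8-base site, GTCTTCCA, has a further A. Each line gives 30 bases with the 8-base site in capitals.
Shank1: gccctagaactGTCTTCCAagggggcggga
Shank2: gccattaacttGTCTTCCAatgggtggttc
Shank3: acagctgcccaGTCTTCCAtctctggcccc
Dlgap1: tgggacttaccGTCTTCCAtgtgaaagaaa
The 7-base site occurred in 14.659% of 12641 untranslated regions and the 8-base site in 4.383%. Among the 9 genes 6 had at least 1 7-base site (Dlg4, Shank1, Shank2, Shank3, Camk2a and Dlgap1), and 4 of these had an 8-base site. Homer1, Homer2 and Camk2b had 0. These untranslated regions are long, from 1938 bases in Shank3 to 9772 in Homer2, and long regions hold more sites. Among regions of like length the 8-base site was present in 8.28% for Shank1, 8.25% for Shank2, 5.24% for Shank3 and 8.12% for Dlgap1. The 7-base site was present there in 34.58% for Dlg4, 25.01% for Shank1, 26.27% for Shank2, 17.24% for Shank3, 26.67% for Camk2a and 24.42% for Dlgap1. For the genes without a site the share was 33.05% for Homer1, 56.52% for Homer2 and 19.12% for Camk2b.

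The libraries held 3.74 to 10.5 M reads (megareads), as read from the step between low CPM values, with a median of 6.91. CL KO replicate 6 was the shallowest, at 3.74 to 3.82 M reads over its tables, and the next lowest was 5.26. That library was at an end of its group in 89.4% of genes and PI WT replicate 4 in 80.6%, where an even share is 66.7% and the other 22 libraries had 53.0% to 74.8%. The worth of 3 reads was 0.286 to 0.802 CPM (a limit for counting error alone), while the recoverable values of the 9 genes ran from 43.6 to 1058 CPM. Cdr1as stood between 11.31 and 11.93 log2 CPM in the recoverable values of WT, and its highest recoverable value in KO was 0.168 CPM, under the limit, so the target matched the labels.

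Per length of annotated exons, Camk2a was the most abundant of the 9 in CL WT, at 128 CPM per kb. Homer1 followed with 47.7 CPM per kb, Camk2b with 33.3, Dlgap1 with 30.3, Dlg4 with 19.7, Shank2 with 10.7, Homer2 with 7.77, Shank1 with 7.02 and Shank3 with 6.38. The last neighbours lay within their errors of each other, with Shank1 at 2.81 and Shank3 at 2.67 on the log2 CPM per kb scale, where the SE of the levels was 0.07 and 0.12. The annotated exons are the union of all isoforms, which understates genes with long, little used exons. In the other groups Camk2a was again the highest, from 89.1 CPM per kb in PI KO to 134 in CL KO.

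The comparison of PI with CL asks how the cortex of the same animals differed between the samples marked PI and CL. In WT all 9 genes were lower in PI, by a median of 0.21 on the log2 scale, where the median over all 14489 genes was a difference of 0.01 and 47.7% of genes were below 0. The test called 4 of the 9 lower: Homer1, Camk2a, Homer2 and Dlg4. Over all genes 10.6% were called, 5.4% as lower and 5.2% as higher. In KO all 9 were lower as well, by a median of 0.31, where the median over all 14338 genes was -0.00 and 50.1% of genes were below 0. There the test called 5 of the 9 lower, Camk2a, Homer1, Shank1, Dlgap1 and Homer2, where 10% of all genes were called, 4.94% as lower and 5.11% as higher. Homer1, Homer2 and Camk2a were called in both genotypes (3 of 9). With the CL and PI libraries of an animal treated as a pair (a replicate block), 7 of 9 were called lower in WT, where 8.08% of all genes were, and 8 of 9 in KO, where 7.95% were. On data simulated for the WT comparison with 0 genes changed (3 runs), the block still called 38 to 45 genes without correlation within pairs. With a pair correlation of 0.5 it called 8 to 14, and the test without the block called 0 to 1 and 0. With 200 of 14489 genes lowered, 29.7% and 17.7% of the block's calls were false, against 5.84% and 0.639% without it. These shares depend on how many genes change, and KO was not simulated. A call by the block alone is therefore taken as the weaker of the 2.

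**Figure D1:**
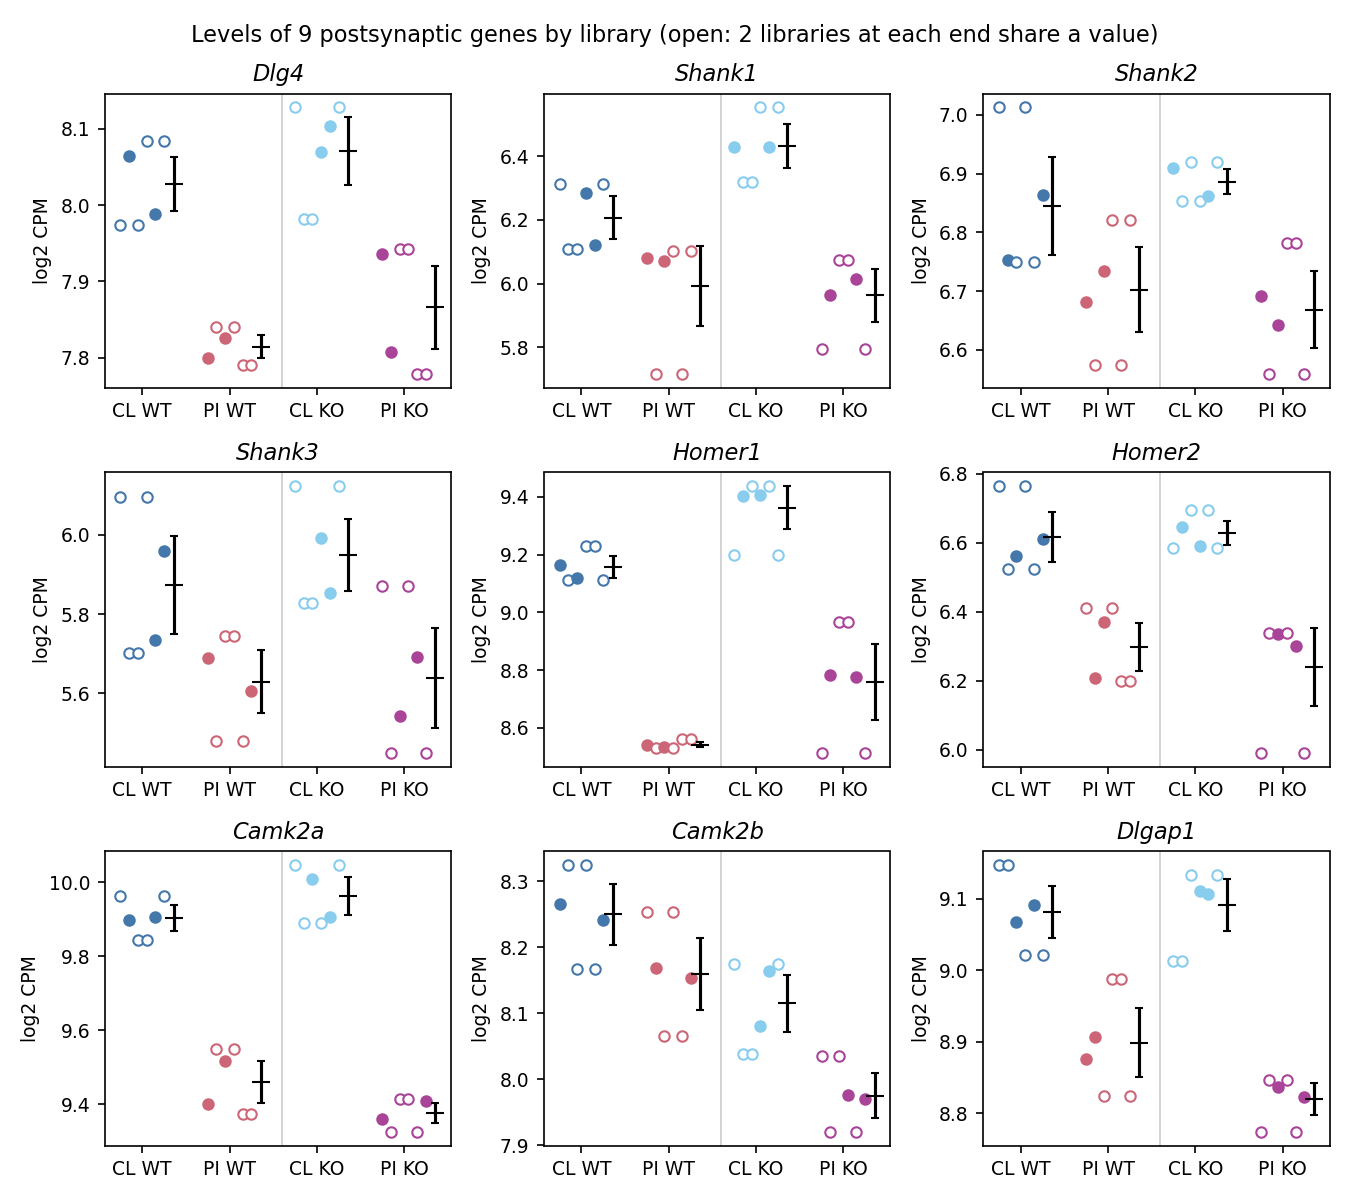
Level of each of the 9 genes by library, in log2 CPM (vertical axis, range differs by panel), for CL WT and PI WT (1 table) and CL KO and PI KO (another table, right of the grey line). Filled points are libraries whose value is as deposited, open points are the 2 libraries at each end of a group, drawn at the recoverable value nearest that end, and the black bar is the trimmed mean ± SE. The PI points lie below the CL points of the same genotype with no overlap for 6 genes in WT and 8 in KO.

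**Figure D2:**
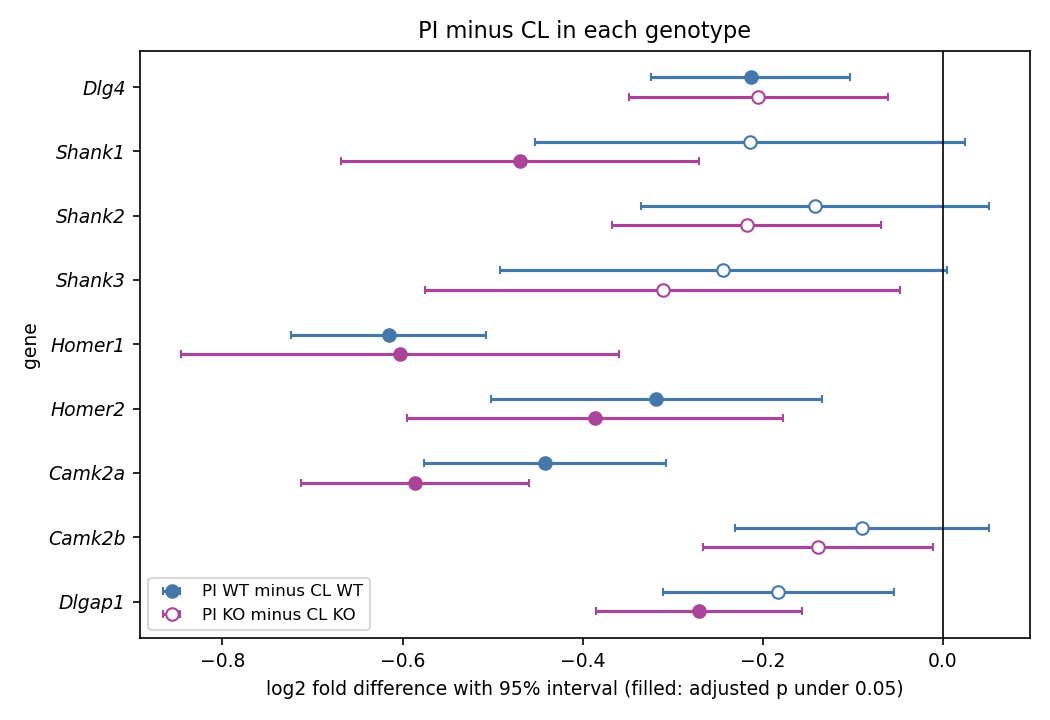
PI minus CL as a log2 fold difference (horizontal axis) with its 95% interval for each gene, in WT (blue) and KO (purple), where filled points had an adjusted p under 0.05. All 18 points lie below 0, from -0.62 for Homer1 in WT to -0.09 for Camk2b in WT.

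Dlg4, the membrane-proximal scaffold, lies on chromosome 11 (GRCm38, 70016942 to 70047522, plus strand). In CL WT its recoverable values ran from 7.97 to 8.08 log2 CPM with a median of 8.03, and in PI WT from 7.79 to 7.84 with a median of 7.81. The groups did not overlap, and Dlg4 fell by 0.21 on the log2 scale in PI WT (SE 0.05, adjusted p = 0.0176, lower in 6 of 6 animals in the deposited values), or -13.8%. In KO its values ran from 7.98 to 8.13 in CL (median 8.09) and from 7.78 to 7.94 in PI (median 7.87), again without overlap. The difference in KO was -0.20 (SE 0.07, adjusted p = 0.0696), and it was called with the replicate block (adjusted p = 0.0277). The estimates in WT and KO were thus nearly equal, on opposite sides of the threshold. Without CL WT replicate 6 the WT difference was -0.19 with an adjusted p of 0.0559.

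Dlgap1, which links Dlg4 to Shank, lies on chromosome 17 (69969073 to 70821413, plus strand). Its recoverable values ran from 9.02 to 9.15 log2 CPM in CL WT (median 9.08) and from 8.82 to 8.99 in PI WT (median 8.89). In KO they ran from 9.01 to 9.13 in CL (median 9.11) and from 8.77 to 8.85 in PI (median 8.83). The PI and CL values did not overlap in either genotype. Dlgap1 fell by 0.27 in KO (SE 0.05, adjusted p = 0.00661, lower in 6 of 6 animals), or -17.1%. The WT difference was -0.18 (SE 0.06, adjusted p = 0.0696), and it was called with the replicate block (adjusted p = 0.0235), without PI WT replicate 4 (adjusted p = 0.0294) and without PI WT replicate 5 (adjusted p = 0.0370).

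Of the Shank genes, the master scaffolds of the deeper layer of the density, Shank1 was called in KO and none in WT without the block. Shank1 (chromosome 7, 44310253 to 44360572, plus strand) ran from 6.32 to 6.55 log2 CPM in CL KO (median 6.43) and from 5.80 to 6.08 in PI KO (median 5.99). These groups did not overlap, and Shank1 fell by 0.47 in KO (SE 0.09, adjusted p = 0.00677, lower in 6 of 6 animals), or -27.8%. In WT its values ran from 6.11 to 6.31 in CL (median 6.20) and from 5.72 to 6.10 in PI (median 6.08), where replicates 2 and 5 were the low libraries. The groups nearly touched without overlapping, and the difference was -0.21 (SE 0.11, adjusted p = 0.267), called with the block (adjusted p = 0.0372). Without PI WT replicate 2 the WT difference was -0.12, and without PI WT replicate 4 it was -0.25.

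Shank2 (chromosome 7, 144001928 to 144424494, plus strand) had medians of 6.81 log2 CPM in CL WT, 6.71 in PI WT, 6.89 in CL KO and 6.67 in PI KO. Its difference was -0.14 in WT (SE 0.09, adjusted p = 0.373, interval -0.34 to 0.05) with overlapping groups. In KO it was -0.22 (SE 0.07, adjusted p = 0.0645) with groups that did not overlap, and it was called with the block (adjusted p = 0.0351), without PI KO replicate 4 (adjusted p = 0.0260) and without PI KO replicate 5 (adjusted p = 0.0389). Shank3 (chromosome 15, 89499623 to 89560261, plus strand) had medians of 5.85 in CL WT, 5.65 in PI WT, 5.92 in CL KO and 5.62 in PI KO. Its groups overlapped in both genotypes, and the SE of its difference was the largest of the 9 genes in both. The Shank3 difference was -0.24 in WT (SE 0.11, adjusted p = 0.218, lower in 5 of 6 animals) and -0.31 in KO (SE 0.12, adjusted p = 0.131, lower in 6 of 6). Both were called with the block (adjusted p = 0.0248 in WT and adjusted p = 0.0125 in KO), and the KO difference of Shank3 was -0.39 and called without PI KO replicate 1 (adjusted p = 0.0452) or replicate 4 (adjusted p = 0.0436).

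Homer1 (chromosome 13, 93299635 to 93405129, plus strand) had the largest fall of the 9 genes. In CL WT it ran from 9.11 to 9.23 log2 CPM with a median of 9.14. In PI WT it ran from 8.53 to 8.56 with a median of 8.54, the narrowest range of any of the 9 genes in any group. The fall in WT was 0.62 on the log2 scale (SE 0.05, adjusted p = 1.68e-05, lower in 6 of 6 animals), or -34.7%, and 1.56% of genes had a lower value. In CL KO Homer1 ran from 9.20 to 9.44 (median 9.40), and in PI KO from 8.51 to 8.97 (median 8.78), a much wider range than in PI WT. It fell by 0.60 in KO (SE 0.11, adjusted p = 0.00525, lower in 6 of 6 animals), or -34.2%. In PI KO replicates 1 and 6 were low and replicates 3 and 4 high. Homer1 was called in each of the 12 fits that left 1 library out, in both genotypes.

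Homer2 (chromosome 7, 81600481 to 81707527, minus strand), a long-form Homer from another gene, ran from 6.52 to 6.76 log2 CPM in CL WT (median 6.59) and from 6.20 to 6.41 in PI WT (median 6.29). In KO it ran from 6.58 to 6.69 in CL (median 6.62) and from 5.99 to 6.34 in PI (median 6.32), with replicates 1 and 6 again the low libraries of PI KO. Neither pair of groups overlapped. Homer2 fell by 0.32 in WT (SE 0.08, adjusted p = 0.0299) and by 0.39 in KO (SE 0.10, adjusted p = 0.0246), in 6 of 6 animals each in the deposited values. These calls lay near the threshold. Homer2 was called in 6 of 12 fits with 1 library left out in WT and in 8 of 12 in KO. The adjusted p in these fits went up to 0.0855 in WT and 0.0705 in KO. The call was lost without CL WT replicate 1, 4 or 6, PI WT replicate 2, 5 or 6, or CL KO replicate 2, 3, 4 or 5, and the difference stayed between -0.36 and -0.27 in WT and between -0.42 and -0.30 in KO.

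The CaMKII subunits stood apart from each other in size of difference. Camk2a (chromosome 18, 60925618 to 60988152, plus strand), the main forebrain subunit, ran from 9.84 to 9.96 log2 CPM in CL WT (median 9.90) and from 9.37 to 9.55 in PI WT (median 9.46). In KO it ran from 9.89 to 10.05 in CL (median 9.96) and from 9.32 to 9.41 in PI (median 9.38). The highest recoverable PI value lay well below the lowest CL value in both genotypes. Camk2a fell by 0.44 in WT (SE 0.06, adjusted p = 0.000783), or -26.4%, and by 0.59 in KO (SE 0.06, adjusted p = 8.33e-05), or -33.4%. It was lower in 6 of 6 animals of each genotype in the deposited values, a count that groups without overlap fix in advance. The test called it in each of the 12 fits that left 1 library out, in both genotypes.

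Camk2b (chromosome 11, 5969644 to 6066362, minus strand), the subunit that binds actin, ran from 8.17 to 8.32 log2 CPM in CL WT (median 8.25) and from 8.07 to 8.25 in PI WT (median 8.16), with overlap. In KO it ran from 8.04 to 8.18 in CL (median 8.12) and from 7.92 to 8.04 in PI (median 7.97), where the ranges met without overlapping. Its difference was -0.09 in WT (SE 0.07, adjusted p = 0.456, interval -0.23 to 0.05) and -0.14 in KO (SE 0.06, adjusted p = 0.162, interval -0.27 to -0.01). It was the smallest difference of the 9 in both genotypes and was not called with the block either (adjusted p = 0.346 in WT and adjusted p = 0.141 in KO). The 95% intervals of Camk2a and Camk2b did not overlap in either genotype, at -0.58 to -0.31 against -0.23 to 0.05 in WT and at -0.71 to -0.46 against -0.27 to -0.01 in KO. The difference between the subunits was not itself tested.

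Without the block, then, non-overlapping lower values in PI were seen for 6 of 9 genes in WT (Dlg4, Dlgap1, Shank1, Homer1, Homer2 and Camk2a), where 13.1% of all genes had them. In KO they were seen for 8 of 9 (each gene but Shank3), where 13.4% of all genes had them. Leaving out 1 library at a time gave 2 to 5 called members in WT, lowest without CL WT replicate 6 and highest without PI WT replicate 4. In KO it gave 4 to 7, highest without PI KO replicate 4. Leaving out the shallow CL KO replicate 6 gave 5 called members in KO. With a prior variance that had no trend with expression, Dlg4 (adjusted p = 0.0709) and Homer2 (adjusted p = 0.0999) were no longer called in WT, nor were Homer2 (adjusted p = 0.0931) and Dlgap1 (adjusted p = 0.0524) in KO. Fewer cells of a type and less RNA per cell cannot be told apart in bulk tissue, here and in each result below.

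The genes also differed in how they varied among animals of a group. Over the 4 groups, the mean of Pearson's r within a group of 6 libraries was 0.75 between Shank2 and Shank3, 0.66 between Shank1 and Shank3, 0.68 between Dlg4 and Camk2b, and 0.56 between Shank1 and Shank2. Homer1 and Camk2a, the pair with the largest falls, had a mean r of -0.43 within groups, with -0.92 in PI WT at one end and 0.21 in PI KO at the other. In PI WT Homer1 ran only from 8.53 to 8.56 log2 CPM, so the r there rests on a very small spread. The other pairs varied between groups too: Shank1 and Shank3 from 0.09 in PI KO to 0.95 in CL WT, and Shank1 and Shank2 from -0.00 in CL KO to 0.90 in PI WT. These are descriptions of values drawn in at the ends, which share library and depth. At the high end of PI WT stood replicate 4, in 8 of 9 genes, and at its low end replicate 5, in 7 of 9. In PI KO replicate 4 was at the high end in 8 genes and replicate 6, the shallowest PI KO library at 5.26 to 5.38 M reads, at the low end in 6. In CL KO replicate 2 was at the low end in 7 genes and the shallow replicate 6 at the high end in 7. The part of depth in these positions was not tested.

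Other genes of the postsynaptic density were examined as a list of 40, all of them listed. In WT 16 of the 40 were called lower and 1 higher, with a median difference of -0.19, and 32 of 40 lay below 0. In KO 16 were called lower and 0 higher, with a median of -0.22, and 38 of 40 lay below 0. Over all genes 5.4% were called lower and 5.2% higher in WT, where 47.7% lay below 0. In KO the shares were 4.94% and 5.11%, with 50.1% below 0. Called in both genotypes were 12 of the 40. Camk2n1, an inhibitor protein of CaMKII, had the smallest p in both, and it fell by 0.54 in WT (SE 0.05, adjusted p = 7.21e-05) and by 0.53 in KO (SE 0.07, adjusted p = 0.000608). Nrgn (neurogranin), which binds calmodulin, fell by 0.38 in WT (SE 0.08, adjusted p = 0.0117) and by 0.37 in KO (SE 0.06, adjusted p = 0.00144).

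Further called genes of that list had other roles. In WT Camk2g, another CaMKII subunit gene, fell by 0.31 (SE 0.05, adjusted p = 0.00148), Lrrc7 (densin), a scaffold that binds CaMKII, by 0.25 (SE 0.06, adjusted p = 0.0108), and Ppp3ca, the catalytic subunit of calcineurin, by 0.34 (SE 0.08, adjusted p = 0.0133). In KO Lzts3, a Shank-binding protein, fell by 0.55 (SE 0.11, adjusted p = 0.00649), Synpo, an actin-associated protein of spines, by 0.38 (SE 0.08, adjusted p = 0.00870), and Iqsec2, an Arf exchange factor, by 0.36 (SE 0.08, adjusted p = 0.0110). Camk2g (-0.23, adjusted p = 0.0310) and Ppp3ca (-0.36, adjusted p = 0.0164) were also called in KO. Likewise Lzts3 (-0.38, adjusted p = 0.0397) and Iqsec2 (-0.28, adjusted p = 0.0215) were called in WT. Lrrc7 in KO (-0.16, adjusted p = 0.139) and Synpo in WT (-0.24, adjusted p = 0.0979) were lower without being called. Tanc1, a scaffold that binds Dlg4, was the 1 gene called higher, by 0.32 in WT (SE 0.09, adjusted p = 0.0299). Its difference in KO was 0.38 (adjusted p = 0.0502). Of other paralogs of the 9 genes, Homer3 had a difference of 0.66 in WT (adjusted p = 0.202) and 0.17 in KO (adjusted p = 0.755). Camk2d had 0.05 in WT (adjusted p = 0.724) and -0.08 in KO (adjusted p = 0.621), and neither gene was called.

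**Figure D3:**
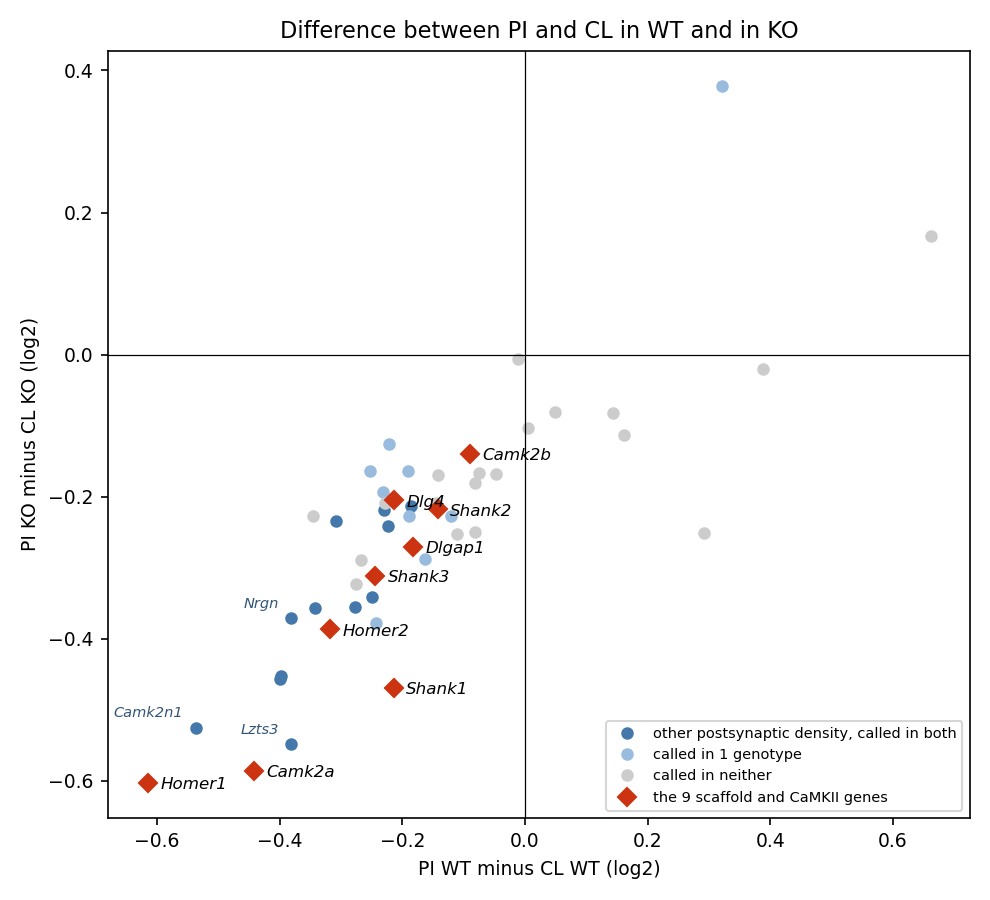
PI minus CL in WT (horizontal axis) against the same in KO (vertical axis), both as log2 fold differences, for the 9 genes (red diamonds) and 40 other postsynaptic density genes (circles, coloured by the genotypes in which they were called). The 9 genes all lie below 0 on both axes, and of the 40 others 32 lie below 0 in WT and 38 in KO.

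Immediate early genes, which neurons switch on with activity, are given beside Homer1 because Homer1a is one of them. Of 20 listed, 8 were called lower and 2 higher in PI WT, with a median difference of -0.53, and in KO 6 were called lower and 2 higher, with a median of -0.56. The shares over all genes were 5.4% lower and 5.2% higher in WT, and 4.94% lower and 5.11% higher in KO. In WT Nr4a2, a nuclear receptor, fell by 1.56 (SE 0.14, adjusted p = 3.35e-05), while Nptx2, a secreted pentraxin that gathers AMPA receptors, rose by 1.19 (SE 0.12, adjusted p = 6.80e-05). In KO Egr2 fell by 1.995 (SE 0.37, adjusted p = 0.00504) and Fosl2 by 0.71 (SE 0.14, adjusted p = 0.00626), both transcription factors. By library, the summed deposited CPM of the 20 genes was 331 to 366 in PI WT and 414 to 496 in CL WT. In PI KO it was 349 in replicate 1 and 338 in replicate 6, the libraries lowest in Homer1, and 471 to 543 in the other 4. In CL KO it was 549 to 638. PI KO thus had the widest range both in Homer1 and in this sum.

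Markers of cell types moved between PI and CL as well, and their part in the results above was not tested. Beside the counts of each marker list, here and below, stand the shares over all genes. These were 5.4% called lower and 5.2% higher in WT, and 4.94% lower and 5.11% higher in KO. Of 12 neuron markers, 4 were called lower in WT and 5 in KO, with medians of -0.21 and -0.23, close to the medians of the 9 genes in WT. Their summed level was 7975 to 8717 CPM in PI WT against 9306 to 9832 in CL WT, and 7779 to 8488 in PI KO against 9154 to 9553 in CL KO. Sums of lists, here and below, add the deposited values, which had been drawn in at the ends, so their ranges can understate the spread. Nefl, a neurofilament subunit, had the smallest p, and it fell by 0.41 in WT (SE 0.07, adjusted p = 0.00291) and by 0.31 in KO (SE 0.06, adjusted p = 0.00427). The synaptic vesicle protein gene Syn1 fell by 0.23 in WT (SE 0.05, adjusted p = 0.0102) and by 0.33 in KO (SE 0.06, adjusted p = 0.00460). Homer1 and Camk2a had larger differences than any neuron marker in either genotype, where the lowest marker was at -0.41 in WT and at -0.33 in KO. In WT, however, Camk2a, at -0.44 (SE 0.06), lay within its SE of that marker. The gaps between these genes and the markers were not tested.

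Within neurons, 8 markers of excitatory cells had medians of -0.08 in WT and -0.21 in KO, with 1 and 2 called lower, and their summed level was 1001 to 1079 CPM in PI WT, 1061 to 1145 in CL WT, 945 to 1076 in PI KO and 1092 to 1179 in CL KO. Nrn1, which codes for the neurite protein neuritin, fell by 0.38 in both genotypes (adjusted p = 0.0218 in WT and adjusted p = 0.0106 in KO). The 8 interneuron markers had medians of 0.08 in WT and 0.07 in KO. Of these Vip, a neuropeptide gene, fell by 0.47 in WT (adjusted p = 0.0475), and in KO the GABA-synthesising Gad2 rose by 0.38 (adjusted p = 0.00652) and the neuropeptide gene Npy by 0.33 (adjusted p = 0.0139). Their summed level was 614 to 720 CPM in PI WT, 595 to 656 in CL WT, 660 to 715 in PI KO and 620 to 653 in CL KO.

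Of the 8 striatum markers 6 were listed (Drd2 and Adora2a were not), and they summed to 173 to 208 CPM in PI WT, 218 to 279 in CL WT, 175 to 198 in PI KO and 205 to 231 in CL KO. In WT 2 of the 6 were called lower and 1 higher, and in KO 1 was called lower. Ppp1r1b, which codes for the dopamine-regulated phosphatase inhibitor DARPP-32, rose by 0.63 in WT (adjusted p = 0.0159) and had a difference of 0.50 in KO (adjusted p = 0.126). The phosphodiesterase gene Pde10a fell by 0.50 in WT (adjusted p = 0.0355) and had a difference of -0.30 in KO (adjusted p = 0.0610). No comparison of the 9 genes was made without striatal RNA.

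Among glial and vascular lists, the reactive astrocyte genes stood out. Of the 10 on the list, 9 were called higher in WT, and of the 9 listed in KO, 8 were called higher, with medians of 2.53 and 2.55. Their sum rose from 110 to 135 CPM in CL WT to 449 to 520 in PI WT, and from 107 to 125 in CL KO to 427 to 608 in PI KO. Gfap, the astrocyte filament gene, rose by 1.88 in WT (SE 0.11, adjusted p = 1.87e-06) and by 2.19 in KO (SE 0.16, adjusted p = 8.47e-06), and Lcn2, a secreted lipocalin, by 3.38 (SE 0.20, adjusted p = 1.87e-06) and 3.52 (SE 0.20, adjusted p = 1.46e-06). Serpina3n, a protease inhibitor gene, rose by 2.72 in KO (SE 0.11, adjusted p = 3.15e-08). Microglia markers had 4 of 8 called higher and 1 lower in each genotype, with sums of 185 to 209 CPM in PI WT, 168 to 180 in CL WT, 201 to 244 in PI KO and 178 to 193 in CL KO. Itgam, an integrin subunit gene, rose by 1.08 in WT (adjusted p = 0.000108) and by 0.95 in KO (adjusted p = 0.00212), and the complement gene C1qa by 0.69 (adjusted p = 0.00119) and 0.79 (adjusted p = 0.00278). The gene called lower was P2ry12, a receptor of resting microglia, which fell by 0.82 in WT (adjusted p = 0.0139) and by 0.75 in KO (adjusted p = 0.00303).

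The other lists gave smaller differences. Astrocyte markers had 3 of 8 called lower and 1 higher in WT and 1 each way in KO, with sums of 6577 to 6981 CPM in PI WT, 7573 to 7978 in CL WT, 6385 to 7076 in PI KO and 7587 to 8091 in CL KO. The water channel gene Aqp4 rose by 0.27 in WT (adjusted p = 0.0125) and by 0.41 in KO (adjusted p = 0.0140), while the gap junction gene Gja1 fell by 0.35 (adjusted p = 0.0126) and 0.43 (adjusted p = 0.00185). Oligodendrocyte markers had 1 of 8 called lower in WT, Cnp, a myelin enzyme gene, which fell by 0.41 (adjusted p = 0.0167), and 0 called in KO, where 1 of 8 had an unadjusted p under 0.05 (24.9% of all genes) and the block called 2 higher and 2 lower. They summed to 1562 to 2187 CPM in PI WT, 2212 to 2415 in CL WT, 1729 to 1947 in PI KO and 1759 to 2398 in CL KO. Endothelial markers had 0 of 8 called in WT, where 3 had an unadjusted p under 0.05 (23.9% of all genes) and the block called 2 each way, and 2 called lower in KO, and summed to 106 to 155 CPM in PI WT, 111 to 160 in CL WT, 122 to 131 in PI KO and 126 to 147 in CL KO. Of these 8 endothelial markers 6 lay above 0 in each genotype, with medians of 0.27 in WT and 0.11 in KO. Among the 8 the transporter gene Slco1a4 fell by 0.48 in KO (adjusted p = 0.00234), and the cadherin gene Cdh5 had a difference of 0.79 in WT (adjusted p = 0.0542). Of 10 neutrophil and monocyte markers Lyz2 alone was listed in the tables of PI and CL, at 4.78 to 8.59 CPM in PI WT, 3.45 to 4.16 in CL WT, 6.04 to 10.0 in PI KO and 3.21 to 5.38 in CL KO, and it was not called (adjusted p = 0.0692 in WT and adjusted p = 0.0648 in KO).

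**Figure D4:**
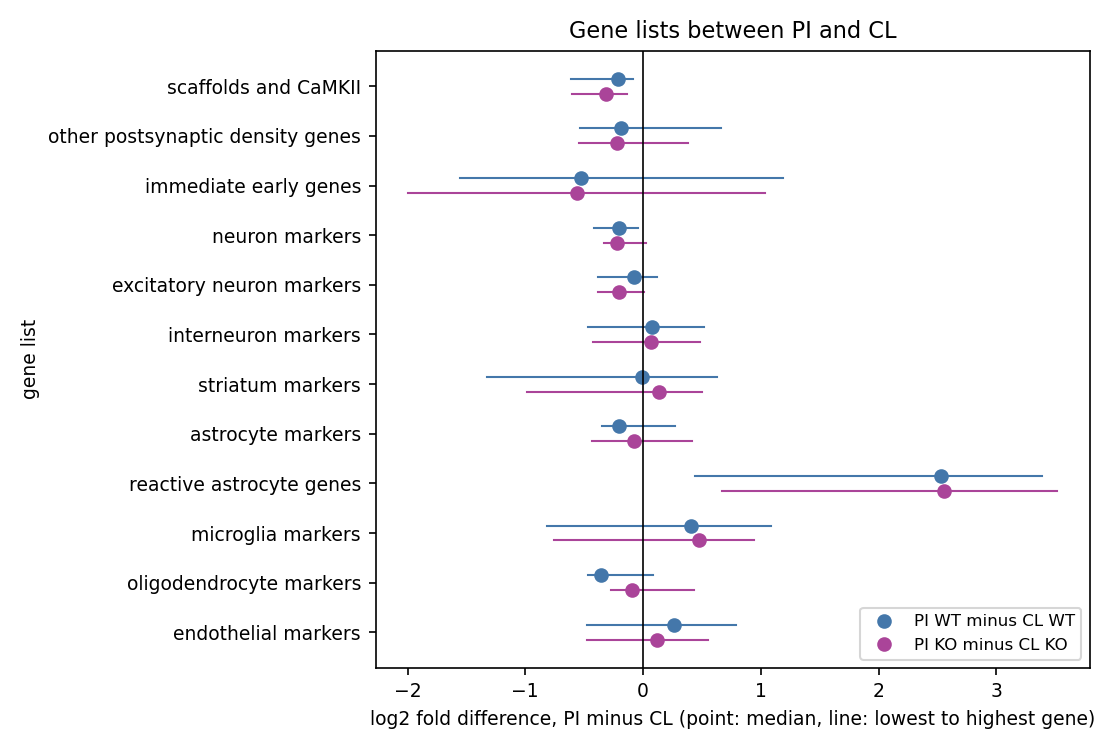
PI minus CL for gene lists, as log2 fold differences (horizontal axis), in WT (blue) and KO (purple). Points are medians of a list and lines run from its lowest to its highest gene. The scaffolds and CaMKII genes have medians of -0.21 in WT and -0.31 in KO, the neuron markers have -0.21 and -0.23, and the reactive astrocyte genes have medians of 2.53 and 2.55.

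The comparison of KO with WT asks whether loss of ciRS-7 altered these genes on the same side. In PI 0 of the 9 genes were called by the trimmed-mean test, where 0.0208% of all 14452 genes were called. An unadjusted p under 0.05 was found for 1 of the 9, Camk2b, and for 5.75% of all genes. limma on the deposited values, which understates the spread, called 2 of the 9 (Camk2b and Homer1) and 16.5% of all genes. In CL 0 of the 9 were called, where 0.0279% of all 14323 genes were called. There 2 of the 9, Shank1 and Homer1, had an unadjusted p under 0.05, as did 5.73% of all genes, and limma on the deposited values called 3 (Shank1, Homer1 and Camk2b) and 16.1% of all genes.

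**Figure D5:**
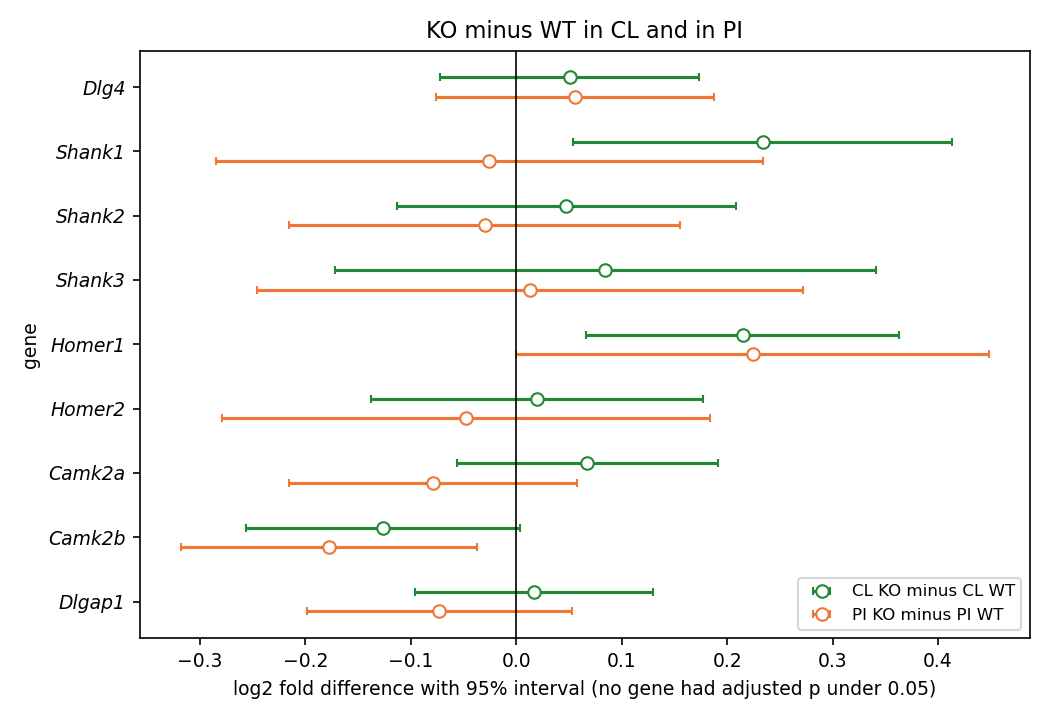
KO minus WT as a log2 fold difference (horizontal axis) with its 95% interval for each gene, in CL (green) and PI (orange). All points are open, because 0 of the 9 genes had an adjusted p under 0.05 on either side, and the estimates run from -0.18 for Camk2b in PI to 0.23 for Shank1 in CL.

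Homer1 had a positive KO minus WT difference on both sides, with overlapping ranges, and did not pass the test. In the table of the CL groups it ran from 9.18 to 9.41 log2 CPM in CL KO (median 9.38) and from 9.08 to 9.19 in CL WT (median 9.11), and the ranges overlapped narrowly, because replicates 1 and 6 of CL KO were low. The difference was 0.21 (SE 0.07, interval 0.07 to 0.36, adjusted p = 0.688). In the table of the PI groups it ran from 8.55 to 9.005 in PI KO (median 8.81) and from 8.56 to 8.59 in PI WT (median 8.57). Here the 2 lowest libraries of PI KO (replicates 1 and 6) were no higher than PI WT and the other 4 were above it, and the difference was 0.22 (SE 0.10, interval -0.00 to 0.45, adjusted p = 0.854). Of the 20 immediate early genes 19 had a positive KO minus WT difference in CL, with a median of 0.44. The trimmed-mean test called 0 of them, 15 had an unadjusted p under 0.05, and limma on the deposited values called 15 higher and 1 lower. Egr1, a zinc-finger transcription factor, had the smallest p, with a difference of 0.51 in CL (SE 0.09, adjusted p = 0.197). In PI 17 of the 19 listed were higher in KO, with a median of 0.38, and the test called 0, where 6 had an unadjusted p under 0.05 and limma on the deposited values called 8 higher and 1 lower.

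Camk2b had a negative KO minus WT difference on both sides. In the PI groups it ran from 7.95 to 8.07 log2 CPM in PI KO (median 8.01) and from 8.09 to 8.28 in PI WT (median 8.19), without overlap. Non-overlapping lower values were found in 4.57% of all genes. The difference was -0.18 (SE 0.06, interval -0.32 to -0.04, adjusted p = 0.854). In the CL groups it ran from 8.01 to 8.15 in CL KO (median 8.10) and from 8.13 to 8.29 in CL WT (median 8.22), with overlap, and the difference was -0.13 (SE 0.06, interval -0.26 to 0.00, adjusted p = 0.877). Neither passed the test.

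On the CL side the recoverable values of Shank1 were higher in KO. It ran from 6.29 to 6.53 log2 CPM in CL KO (median 6.40) and from 6.07 to 6.28 in CL WT (median 6.17). The ranges did not overlap, as was so in this direction for 4.35% of all genes, and the difference of 0.23 (SE 0.08, interval 0.05 to 0.41) did not pass the test (adjusted p = 0.785). In PI the Shank1 difference was -0.03 (SE 0.12, interval -0.28 to 0.23, adjusted p = 0.986).

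The other 6 genes had differences of at most 0.085 in size on either side, the largest for Shank3 in CL. Camk2a had a level of 9.94 ± 0.05 log2 CPM (SE, n = 6) in KO and of 9.87 ± 0.04 (SE, n = 6) in WT on the CL side, and a level of 9.41 ± 0.03 (SE, n = 6) in PI KO and of 9.49 ± 0.06 (SE, n = 6) in PI WT. Its difference was 0.07 in CL (interval -0.06 to 0.19) and -0.08 in PI (interval -0.22 to 0.06). For Dlg4 the difference was 0.05 in CL (interval -0.07 to 0.17) and 0.06 in PI (interval -0.08 to 0.19). Dlgap1 had 0.02 in CL (interval -0.10 to 0.13) and -0.07 in PI (interval -0.20 to 0.05). Among the less expressed genes the intervals were wider. They ran from -0.17 to 0.34 for Shank3 in CL and from -0.25 to 0.27 in PI, from -0.11 to 0.21 for Shank2 in CL and from -0.22 to 0.16 in PI, and from -0.14 to 0.18 for Homer2 in CL and from -0.28 to 0.18 in PI. True differences of any size inside these intervals are not excluded by these libraries.

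Read by their miR-7 sites, the 6 genes with a 7-base site had differences of 0.02 to 0.23 between CL KO and CL WT (median 0.06) and of -0.08 to 0.06 between PI KO and PI WT (median -0.03). The 3 genes with no site had -0.13 to 0.21 in CL (median 0.02) and -0.18 to 0.22 in PI (median -0.05). The ranges overlapped on both sides. In CL 6 of 6 genes with a site and 2 of 3 without were above 0, and the highest, Shank1, has a site. In PI 2 of 6 with a site and 1 of 3 without were above 0, and Homer1 and Camk2b, at the ends there, have no such site. Of the 40 other postsynaptic density genes 0 were called between KO and WT on either side (0.0208% of all genes in PI and 0.0279% in CL). An unadjusted p under 0.05 was found for 2 in PI and 4 in CL, and for 5.75% and 5.73% of all genes. With limma on the deposited values 5 were called in PI and 7 in CL, where 16.5% and 16.1% of all genes were called.

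An interaction term asked whether PI minus CL was the same in KO as in WT, over the 14211 genes that both of these tables list. The trimmed-mean test called 0 of the 9 genes and 0% of all genes. An unadjusted p under 0.05 was found for 0 of the 9 and for 4.55% of all genes, the block called 0 of the 9, and limma on the deposited values called 2, Shank1 and Camk2a, and 13.7% of all genes. The most negative estimate was that of Shank1, with an interaction of -0.26 (SE 0.15, interval -0.58 to 0.07, adjusted p = 0.992), and the next that of Camk2a, with -0.14 (SE 0.09, interval -0.32 to 0.04, adjusted p = 0.992). For Homer1 the interaction was 0.01 (SE 0.13, interval -0.27 to 0.29), and for Dlg4 it was 0.01 (SE 0.08, interval -0.17 to 0.18). The calls of Shank1 and Dlgap1 in KO and of Dlg4 in WT were therefore not shown to differ between genotypes.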

How the data were processed

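The authors deposited log2 CPM values in 4 tables of 12 libraries, per the file headers, from ribosome-depleted total RNA (CORALL kit), per the labels' protocols. The submitters' processing notes name the build mm10. The aligner, counting, strand use, scaling and filters are not given in the sources used here. No column was unused (0). Samples were grouped by their titles. In each group and gene the ends had been replaced by quartiles (0.75 of the second value plus 0.25 of the next), in 100% of genes. After recovery 82.2% to 88.0% of tied low values per group and table were whole reads within 0.03 read, against 7.89% to 9.83% as deposited.

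Trimmed means of the 4 recovered values, with Winsorized variances (6 degrees of freedom, 12 for the interaction), were tested with limma 3.58.1 (R 4.3.3), two-sided, with a trend and Benjamini-Hochberg adjustment. The scripts were tested on simulated data. The tables of PI and CL come from the same animals, per the labels, so same-numbered libraries are pairs. Their deviations correlated at 0.03 to 0.41 in WT and -0.11 to 0.30 in KO. In WT 4 of 6 libraries were closest to their own number, and in KO 3 of 6. The block used Winsorized differences (3 degrees of freedom). The alternatives were limma on the deposited values, no trend, the block, centring on the median gene, a filter at a mean log2 CPM of 1, log2(CPM + 1) and leaving out each library, the last added after seeing the data.

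The 9 genes and the lists were chosen with earlier results of these data known. Of the 40 postsynaptic density genes, up to 6 called genes per direction with the smallest p were named in each comparison of PI with CL, and 1 or 2 of every other list. The values of 2 genes that this rule names are not reported here, and the counts and sums of their lists include them. Homer3, Camk2d and P2ry12 were named after their values were seen. Exonic lengths come from GENCODE M21. Exons of genes on the opposite strand cover at most 4.16% of the exonic bases of a member (Homer2), and none of those genes is listed.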

Additional observations from a re-analysis of the deposited data

How the results depend on the processing

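In the comparisons of PI with CL, 0 of the differences of the 9 genes changed sign under any alternative. limma on the deposited values called 9 of 9 genes in WT, 9 in KO, 2 in PI KO minus PI WT, 3 in CL KO minus CL WT and 2 in the interaction, and over all genes 6459, 6666, 2388, 2311 and 1940; by construction it reads a spread that had been drawn in. A prior variance with no trend called 2 of the 9 in WT and 3 in KO (over all genes 1015 and 739), and the cause was not tested. The replicate block called 7 in WT and 8 in KO, and over all genes 2275 and 2154. KO and WT libraries share only a number (r of -0.24 to 0.23 in PI and -0.23 to 0.25 in CL, with 1 of 6 and 3 of 6 libraries closest to their own number). With the block on that number 6 and 85 genes were called in PI and in CL, and with the animal as block in the interaction 1 gene, with 0 of the 9 among them. Centring, the filter and log2(CPM + 1) kept each of these counts within 1.5 times.

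Leaving out 1 library gave 2 to 5 called members in WT and 4 to 7 in KO, and 1111 to 1462 and 899 to 1589 called genes. KO counts fell by more than 1.5 times without CL KO replicate 5 (899) and PI KO replicate 2 (921). Between KO and WT it gave 3 to 4 called genes in PI and 4 to 8 in CL. Differences near 0 changed sign there: Dlgap1 from -0.00248 to 0.0421 and Homer2 from -0.0103 to 0.0694 in CL, Shank1 from -0.119 to 0.0310, Shank2 from -0.0734 to 0.0101, Shank3 from -0.0639 to 0.0763 and Homer2 from -0.0797 to 0.0370 in PI, and in the interaction Dlg4 from -0.0212 to 0.0378, Homer1 from -0.0564 to 0.0951 and Homer2 from -0.118 to 0.0151. The 9 genes all lay far above 3 reads, which bears on counting error only.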

Other observations

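Beyond the lists, the genes most like the 9 across the 12 libraries of each table of PI and CL were sought by the mean of Pearson's r in both tables with the mean of the 9 standardised genes, among 14202 genes. The closest were Iqsec2 (mean r 0.98), Camta2 (0.98), Dmtn (0.98), Scn8a (0.97) and Tnrc6b (0.97). Of these Iqsec2 is on the list of postsynaptic density genes, Camta2 codes for a calmodulin-binding transcription activator, Dmtn for an actin-bundling protein, Scn8a for a neuronal sodium channel and Tnrc6b for a protein of microRNA silencing. Camta2 fell by 0.43 in WT (SE 0.10, adjusted p = 0.0192) and by 0.55 in KO (SE 0.08, adjusted p = 0.000917). Scn8a fell by 0.25 in WT (SE 0.05, adjusted p = 0.00464) and by 0.29 in KO (SE 0.06, adjusted p = 0.00635). Tnrc6b had a difference of -0.08 in WT (adjusted p = 0.349) and fell by 0.19 in KO (adjusted p = 0.0291). These r are descriptions: the libraries of a table fall into 2 groups, share depth and hold drawn-in values.

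The gene closest to Homer1 by the same measure was Fgf13 (mean r 0.99), which codes for an intracellular regulator of sodium channels. Fgf13 fell by 0.57 in WT (SE 0.06, adjusted p = 7.45e-05) and by 0.60 in KO (SE 0.07, adjusted p = 0.000250).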
